A study of Homo sapiens with 27 samples.

Results

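MYC and 43 genes of ribosome biogenesis were followed across 9 groups of prostate cancer cells, as 44 of the 20987 genes of the deposited table. The members were chosen by gene symbol: MYC, 4 subunits of RNA polymerase I, 7 proteins of the small nucleolar ribonucleoprotein particles (snoRNPs), 6 nucleolar proteins with several roles, 11 factors of the small ribosomal subunit and 15 factors of the large one. All 44 were in the table, and their values ran from 65.7 (PPAN) to 43866 (NPM1) normalised counts. Because every value lay above 10, all 44 passed the filter on low values in each line.

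RNA sequencing covered 27 libraries, 3 for each combination of 3 human lines and 3 treatments. LNCaP cells, from a lymph node metastasis, are labelled androgen sensitive. 22Rv1 cells, from a relapsed xenograft, and LNCaP95 cells, an LNCaP derivative grown without androgen, are labelled castration resistant. Each line received the vehicle DMSO, 100 nM IPI-9119 or 500 nM IPI-9119 for 6 days in medium that was not renewed. IPI-9119 inhibits fatty acid synthase (FASN), the enzyme that builds palmitate. Cells and their conditioned medium were pelleted together. The labels name no genetic modification, each line comes from a single tumour, and LNCaP95 shares that of LNCaP, so the lines are not replicates of a disease state. Whether the 3 replicates of a group were grown separately is not in the labels, and the p-values therefore reflect library-to-library spread that may be technical only.

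MYC is a transcription factor that binds DNA with its partner MAX, often at the sequence CACGTG, the E-box, and it drives the genes of cell growth. Ribosome assembly begins in the nucleolus, where RNA polymerase I makes the precursor of the ribosomal RNAs. Box C/D snoRNPs guide methylation and box H/ACA snoRNPs guide pseudouridylation of that precursor, and assembly factors then cut and fold it into the small and large subunits. In prostate cancer MYC is often amplified or overexpressed, and enlarged nucleoli are a classical feature of the tumour cells.

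Reads in genes numbered 14757874 to 26578881 per library. All 10 prostate epithelial markers reached a normalised count of 10 in each line, whereas 1 to 3 of 6 leukocyte, 3 or 4 of 6 stromal and 1 of 4 endothelial markers did. Of the defining markers of other cells, PECAM1 was at 0 in all libraries and CD3E reached 9.28 at most, while PTPRC ran from 65.4 to 139 in LNCaP95. The stromal markers LUM and COL1A1 ran from 780 to 1548 and from 596 to 892 in LNCaP95, and the endothelial marker VWF from 197 to 376 in LNCaP. Some libraries stood apart. The mean log2 level of 20 mitosis genes was 10.29 in LNCaP DMSO replicate 1 and 8.77 and 8.53 in replicates 2 and 3, and mitochondrially encoded genes took 7.56% and 6.92% of the values in replicate 2 of LNCaP95 at 100 nM and 500 nM. 22Rv1 DMSO replicate 3 had 18444 genes above 0. Results of the members that rest on these libraries are given with and without them.

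Compared per kilobase of the median annotated transcript, the order of the members' levels in DMSO was led by the same 2 genes in the 3 lines. NCL, encoding nucleolin, stood at 41662, 43251 and 46936 normalised counts per kilobase in LNCaP, 22Rv1 and LNCaP95, and NPM1, encoding the histone chaperone nucleophosmin, at 31975, 19932 and 22649. MYC was the fifth in each line, at 6516, 4765 and 4465. At the low end stood NOC3L in LNCaP (104), POLR1A in 22Rv1 (143) and RRP1B in LNCaP95 (126). A transcript length taken by symbol from another build makes the order approximate. The length was the median over all annotated protein-coding transcripts of a gene, short ones included, which was 748 bases for NCL and 1287.5 for NPM1. Without division by length the highest value of all members was that of NPM1 (43866). Which of these 2 genes leads therefore depends on the length used and is not settled here.

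MYC fell in LNCaP at both doses. Its normalised counts were 8964, 9325 and 8392 in DMSO (8894 ± 471, SD, n = 3), 6295, 6307 and 5922 at 100 nM (6175 ± 219) and 5504, 6671 and 5712 at 500 nM (5962 ± 622). Every treated library lay below every DMSO library. The log2 fold change, on the log2(value + 1) scale, was -0.53 ± 0.09 (SE) at 100 nM and -0.58 ± 0.09 at 500 nM, with adjusted p of 0.00249 and 0.00144. Both calls held under each of the 16 alternatives, those without 1 library included.

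In 22Rv1 MYC also fell at both doses. The 3 DMSO libraries held 6571, 6641 and 6302 normalised counts, the 100 nM libraries 4456, 5568 and 4920, and the 500 nM libraries 4235, 4910 and 5045. Again no treated library reached the DMSO range, and the log2 fold changes were -0.39 ± 0.10 (SE, adjusted p = 0.0439) and -0.46 ± 0.10 (adjusted p = 0.0198). The calls rested on single libraries. At 500 nM the call was lost without DMSO replicate 2 or 3 or without 500 nM replicate 1 or 2, with adjusted p of 0.0781, 0.0537, 0.0916 and 0.0616. At 100 nM it was lost without any 1 library but 100 nM replicate 2, whose omission gave 0.0122, and in a joint fit of the 27 libraries (0.0553). The 100 nM call was also lost without the filter on low values (0.0621) and with only the groups compared (0.098). With replicates 2 and 3 alone both calls were lost, with adjusted p of 0.233 at 500 nM and 0.315 at 100 nM.

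In LNCaP95 the groups overlapped. MYC stood at 6768, 4910 and 6608 normalised counts in DMSO, at 3986, 4751 and 5472 at 100 nM and at 4106, 5132 and 5310 at 500 nM. DMSO replicate 2 lay within the treated range, and the other two DMSO libraries lay above it. The log2 fold change was -0.36 ± 0.14 (SE) at 100 nM, which passed the test (adjusted p = 0.045), and -0.32 ± 0.14 at 500 nM, which did not (adjusted p = 0.0682). A fit blocked on the replicate number, which pairs these libraries, called MYC at both doses (adjusted p = 0.00816 at 100 nM and 0.0153 at 500 nM). The 500 nM fall was also called by edgeR (0.0413), DESeq2 (0.0199) and a joint fit of the 27 libraries (0.0387). Without DMSO replicate 2 the adjusted p was 0.0076 and 0.0115. Without 500 nM replicate 1 the 500 nM value was -0.21, and with replicates 2 and 3 alone it was -0.13. The 100 nM call was lost without DMSO replicate 1 (0.155) or 3 (0.143) and without 100 nM replicate 1 (0.19) or 2 (0.0801).

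**Figure D1:**
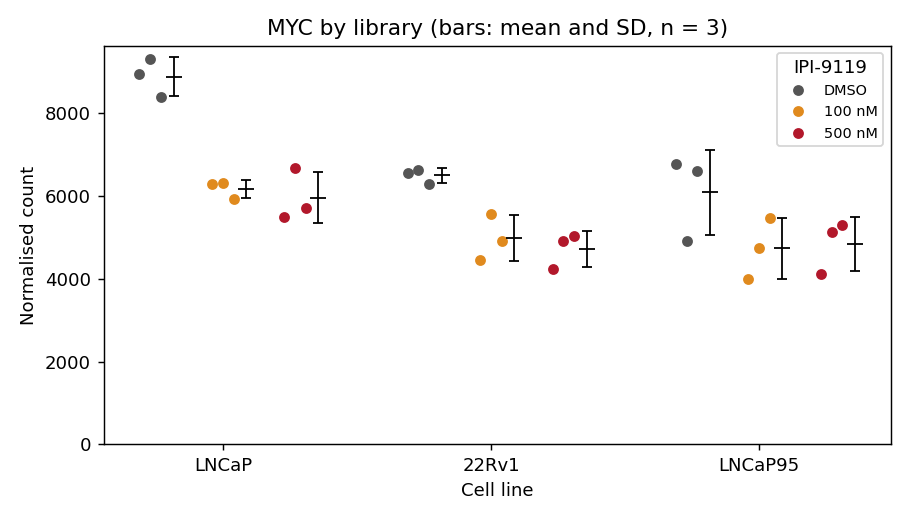
Normalised count of MYC (vertical axis, from 0) in each of the 27 libraries, by cell line and treatment. Points are libraries, and black bars give the mean and SD of 3. In LNCaP and 22Rv1 the treated points lie below all DMSO points, and in LNCaP95 DMSO replicate 2 (4910) lies among the treated points.

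The fall of MYC was not shown to differ between the lines. The difference of the 500 nM effects was 0.12 ± 0.18 (SE) for 22Rv1 minus LNCaP, 0.26 ± 0.18 for LNCaP95 minus LNCaP and 0.14 ± 0.18 for LNCaP95 minus 22Rv1, with adjusted p of 0.721, 0.262 and 0.599. These misses do not show that the effects were alike, and the sign of the first turned with equal totals (-0.04) and that of the last without LNCaP95 DMSO replicate 2 (-0.01).

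The members' promoters were searched for the E-box. RefSeq promoter windows of 300 bases (250 before to 50 after the annotated start, GRCh38.p14) were matched by symbol for 35 of the 44 members, and those of BOP1, DDX18, MYC, NOLC1, NOP58, POLR1E, RRP12, RRP1B and RRS1 were not used here. CACGTG, which reads the same on both strands, occurred in 11 of the 35 (31.4%), against 2030 of 27305 promoters of all genes (7.43%). Among the 14172 promoters of genes in the deposited table CACGTG occurred in 1266 (8.93%). Its 1-letter variant CACGCG, searched on both strands as CACGCG and CGCGTG, occurred in 11 of 35 and in 11.4% of all promoters. A promoter can hold both, as those of FBL and MRTO4 do. The 5 windows below belong to the genes with the strongest falls at 500 nM in LNCaP95 among the E-box promoters other than that of NOP2 (-0.69), whose E-box lies too near the window's end for a stretch of this length. They hold 28 bases each and are printed 5′ to 3′ on the gene's strand with the E-box in capitals.
FBL (chr19:39846357-39846384, minus strand): gcgctcttttcCACGTGcgaaagccccg
UTP20 (chr12:101280084-101280111, plus strand): ttttttccgtcCACGTGacccactcagg
MRTO4 (chr1:19251808-19251835, plus strand): gtcttccgccgCACGTGgattcagcgcg
NOC3L (chr10:94362904-94362931, minus strand): agggacttcggCACGTGtgtcattcccc
RRP9 (chr3:51941893-51941920, minus strand): ggttcagctgcCACGTGagttctgcggc
The first base of the E-box lay 10 bases before the annotated start in UTP20 and 5 before it in RRP9, and at positions 6, 14 and 19 from it, downstream, in FBL, MRTO4 and NOC3L. The other E-box promoters were those of WDR43, BYSL, EBNA1BP2, PNO1, PES1 and NOP2. A match describes letters in a window and not binding.

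In LNCaP95, nearly the whole gene set fell. At 500 nM 41 of 44 members were lower than in DMSO and 1, GNL3, was higher, against 24.1% lower and 28.2% higher of all 12844 genes tested, and the members' median log2 fold change was -0.61 where that of all genes was 0.03. At 100 nM the split was the same, 41 lower and 1 higher, with 24.1% lower and 28.2% higher of all genes and a members' median of -0.60. The 2 doses share their DMSO libraries, so the second is no independent repeat. Across both doses 40 members were lower at each, and the share of all genes lower at each was not counted.

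Separation of the libraries gave a like count. In LNCaP95, 41 members had every treated library of both doses below every DMSO library, against 24.6% of the genes tested. The exceptions were MYC, RRP12 and GNL3, and GNL3 had every treated library above. Together the 44 members held 0.929% to 1.04% of all values in the DMSO libraries and 0.612% to 0.711% in the 6 treated ones. Because RNA came from bulk cells and values are scaled per library, fewer cells of a kind and less RNA per cell cannot be told apart.

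The 4 subunits of RNA polymerase I were all lower at both doses in LNCaP95, with a median log2 fold change of -0.64 at 500 nM. POLR1E, the subunit known as PAF53, held 1425, 1615 and 1384 normalised counts in DMSO, 662, 729 and 712 at 100 nM and 672, 655 and 725 at 500 nM. The treated libraries lay together, far below the DMSO libraries. On the log2 scale POLR1E fell by 1.07 ± 0.08 (SE, adjusted p = 5.9e-07) at 100 nM and by 1.11 ± 0.08 (adjusted p = 4.51e-07) at 500 nM, where the fold was 2.15. POLR1B, the second largest subunit, and POLR1A, the largest, fell by 0.73 and 0.55 at 500 nM, and POLR1C, which polymerase III shares, by 0.26. The POLR1C call at 500 nM (adjusted p = 0.0354) was lost without DMSO replicate 2 and without each of the 500 nM libraries.

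All 7 snoRNP proteins were lower in LNCaP95, with a median of -0.64 at 500 nM. FBL, the methyltransferase of the box C/D particles, stood at 5614, 6807 and 6290 normalised counts in DMSO, 3015, 3472 and 3755 at 100 nM and 2939, 3542 and 3774 at 500 nM. No treated library came near the lowest DMSO library, and the log2 fold change was -0.87 ± 0.11 (SE) at either dose (adjusted p = 2.23e-05 at each). Its partners NOP56 and NOP58, the C/D scaffold proteins, fell by 0.85 and 0.64 at 500 nM. Among the box H/ACA proteins, DKC1, the pseudouridine synthase dyskerin, fell by 0.64, and NHP2 and GAR1 by 0.37 and 0.34. NOLC1, a chaperone of both kinds of particle, fell by 0.50. The partners of FBL were named after their values were seen, and differences between genes were not tested.

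The nucleolar proteins with several roles held the only member that rose. LYAR, a zinc finger protein of the nucleolus, had 1551, 1756 and 1910 normalised counts in DMSO, 728, 886 and 893 at 100 nM and 742, 865 and 951 at 500 nM in LNCaP95, with no overlap between treated and DMSO libraries. It fell by 1.06 ± 0.11 (SE) at 100 nM and 1.03 ± 0.11 at 500 nM (adjusted p = 6.08e-06 and 7.28e-06). NCL, NPM1, RRP1B and the RNA helicase gene DDX21 fell by 0.80, 0.65, 0.57 and 0.48 at 500 nM. NPM1 has many processed pseudogenes that can share its reads, so its level is uncertain.

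GNL3, encoding the nucleolar GTPase nucleostemin, went the other way. Its LNCaP95 libraries held 3257, 3831 and 3240 normalised counts in DMSO, 4247, 4179 and 4231 at 100 nM and 4369, 4067 and 4683 at 500 nM. All treated libraries lay above the highest DMSO library, and the log2 fold change was 0.30 ± 0.08 (SE, adjusted p = 0.00708) at 100 nM and 0.35 ± 0.08 (adjusted p = 0.00269) at 500 nM. The 100 nM call was lost with replicates 2 and 3 alone. GNL3 hosts several snoRNA genes, and its exons overlap some of them and, on the other strand, GLT8D1, so its count may hold reads of other transcripts.

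Of the 11 factors of the small subunit, 10 were lower at 500 nM in LNCaP95, with a median of -0.48. UTP20, a large protein of the small subunit processome, fell the most of them (-0.85), from 2106, 2611 and 2006 normalised counts in DMSO to 1193, 1351 and 1175. The cytoplasmic maturation factor TSR1 fell by 0.71, RRP9, a U3 snoRNP protein, by 0.63, and the processome proteins WDR75, WDR43, UTP15 and HEATR1 by 0.62, 0.53, 0.44 and 0.40. BYSL and PNO1, which act on the pre-40S particle, fell by 0.48 and 0.43. RRP12, a factor of subunit export, was the exception: its value of -0.20 ± 0.09 (SE) at 500 nM was not called (adjusted p = 0.0635), and its DMSO range of 3633 to 4351 overlapped the 500 nM range of 3244 to 3829. With the replicate block RRP12 was called at 500 nM, one of the members by which the count there rose to 43 lower. NOC4L was called at 500 nM (-0.28, adjusted p = 0.0336) and not at 100 nM (-0.25, adjusted p = 0.0546). Its 500 nM call was lost without DMSO replicate 1 or 3 and without 500 nM replicate 1 or 2, and at 100 nM it was called with the block.

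All 15 factors of the large subunit were lower in LNCaP95 at both doses, with a median of -0.62 at 500 nM. BOP1, a member of the PeBoW complex that processes the precursor of the large subunit's RNAs, had 325, 344 and 339 normalised counts in DMSO, 151, 172 and 196 at 100 nM and 153, 150 and 176 at 500 nM. The groups were far apart, and BOP1 fell by 0.96 ± 0.12 (SE) at 100 nM and by 1.07 ± 0.12 at 500 nM (adjusted p = 2.06e-05 and 8.86e-06). The other 2 members of the complex fell less at 500 nM, WDR12 by 0.59 and PES1 by 0.32. They were named after their values were seen. PPAN, a factor of early large subunit assembly, fell by 0.92 ± 0.19 (SE) at 100 nM (adjusted p = 0.00105), from 130, 166 and 149 normalised counts to 65.7, 70.4 and 101. At 500 nM its fall of 0.62 was lost without DMSO replicate 2 or 500 nM replicate 2, and PPAN shares exons with the read-through gene PPAN-P2RY11 and with P2RY11, so its count is uncertain. The remaining factors ranged from -0.76 (MRTO4, which holds the place of a stalk protein) to -0.32 (DDX18, an RNA helicase).

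**Figure D2:**
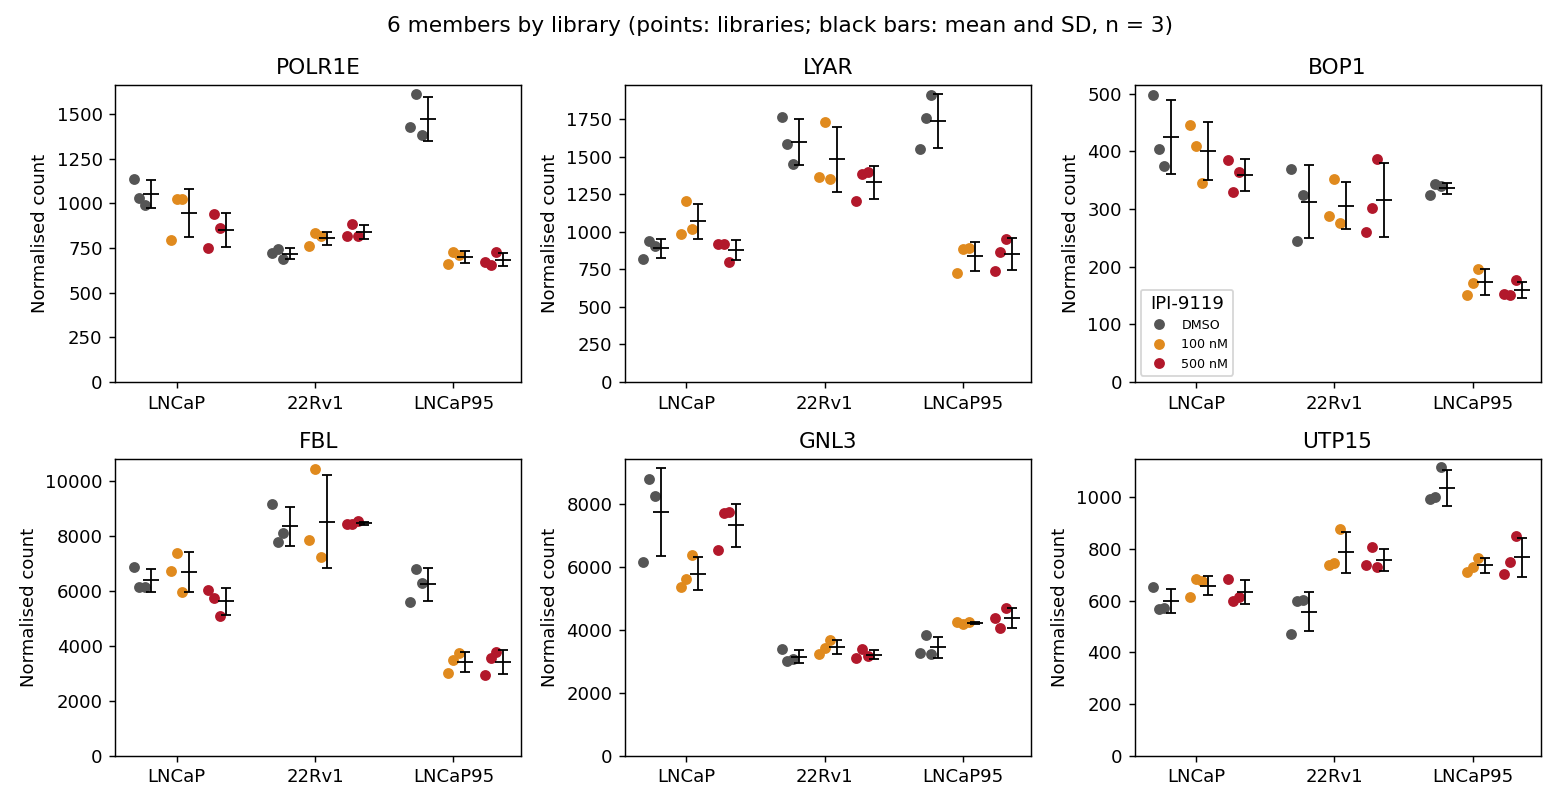
Normalised counts (vertical axes, from 0) of POLR1E, LYAR, BOP1, FBL, GNL3 and UTP15 in each library, by cell line and treatment. Points are libraries and black bars the mean and SD of 3. In LNCaP95 the first 4 genes and UTP15 lie lower in all treated libraries than in DMSO and GNL3 lies higher, while UTP15 lies higher in the treated libraries of 22Rv1.

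The falls in LNCaP95 did not depend on a single library. Leaving out each library in turn kept 39 to 42 members called at 500 nM and 39 to 43 at 100 nM. Without replicate 2, the treated library with the high mitochondrial share, 39 were called at 500 nM and 41 at 100 nM. Equal scaling of the library totals left the split at 41 lower and 1 higher at both doses. The 11 members with an E-box promoter had a median log2 fold change of -0.63 at 500 nM and the 24 with a promoter free of CACGTG one of -0.62. In LNCaP95 the mitosis genes moved with the members: their mean log2 level was 11.35 to 11.47 in DMSO and 9.56 to 10.13 in the treated libraries, and 20 of 20 were lower at 500 nM, with a median of -1.45. Their part in the result was not tested.

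**Figure D3:**
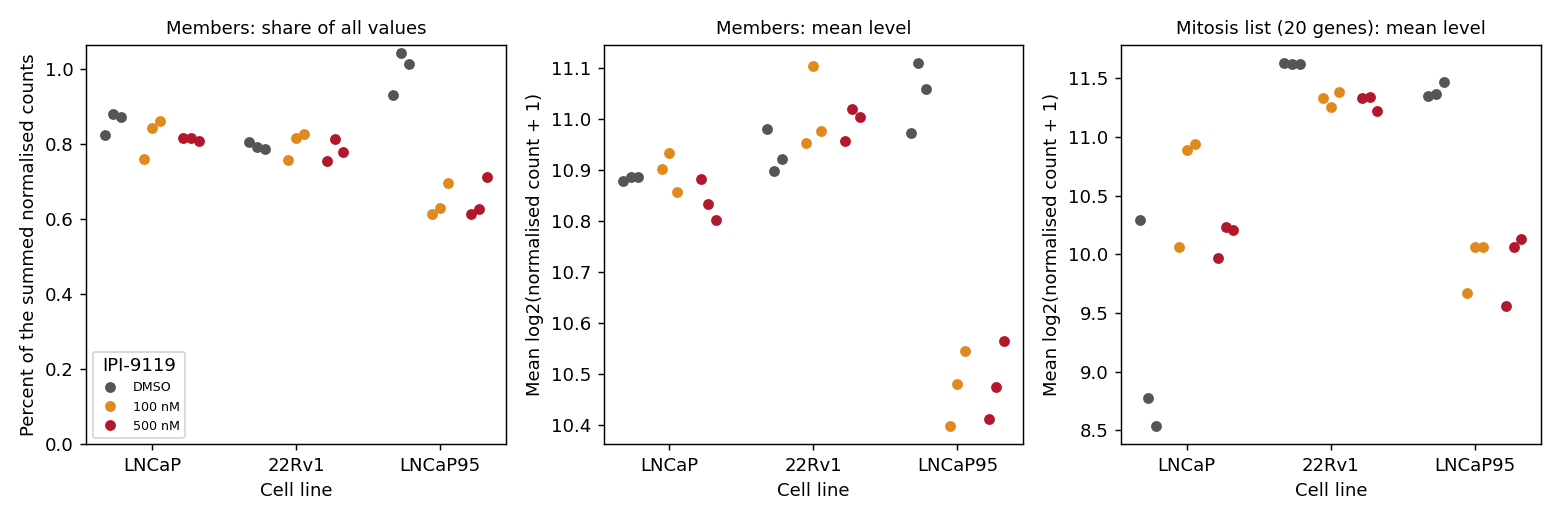
Share of all normalised counts held by the 44 members (left, percent, from 0), their mean log2 level (middle) and the mean log2 level of 20 mitosis genes (right) in each library. Points are libraries, coloured by treatment. In LNCaP95 the members' share is 0.929% to 1.04% in DMSO and at most 0.711% after treatment, and the mitosis genes lie lower as well.

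In LNCaP most members did not pass the test. At 500 nM 3 members were lower, MYC, NPM1 and DDX21, against 9.83% lower and 11.0% higher of all 12837 genes tested, and the median of the 44 was -0.01 (0.06 with equal totals). At 100 nM 4 were lower (MYC, GNL3, DDX21 and NPM1) and 3 higher (GRWD1, NOP58 and NOP16), with 11.6% lower and 13.7% higher of all genes and a median of 0.04. These shares of members were below the background in both directions. With equal totals the members split 2 lower to 1 higher at 500 nM and 3 lower to 4 higher at 100 nM, while the share of all called genes that were higher went from 52.8% to 69.0% and from 54.3% to 65.7%.

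NPM1 in LNCaP held 39199, 40437 and 43866 normalised counts in DMSO, 32055, 33945 and 31892 at 100 nM and 31105, 31908 and 31858 at 500 nM. DDX21 held 8891, 8879 and 9390 in DMSO, 7069, 6491 and 7500 at 100 nM and 7769, 7039 and 7358 at 500 nM. Neither gene overlapped between DMSO and treatment. The log2 fold change of NPM1 was -0.33 ± 0.09 (SE, adjusted p = 0.0229) at 100 nM and -0.38 ± 0.09 (adjusted p = 0.015) at 500 nM, and that of DDX21 -0.37 ± 0.08 (adjusted p = 0.00946) and -0.29 ± 0.08 (adjusted p = 0.0294). MYC, DKC1, NPM1 and DDX21 were the 4 members with every treated LNCaP library below every DMSO library, against 13.4% of genes. NOP58 and GRWD1 had every treated library above, a separation that was not counted over all genes. DKC1 itself was not called (-0.22 at both doses, adjusted p = 0.0597 and 0.0677).

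GRWD1, a chaperone of a large subunit protein, stood at 623, 570 and 547 normalised counts in LNCaP DMSO and at 858, 806 and 713 at 100 nM, without overlap. It rose by 0.45 ± 0.11 (SE, adjusted p = 0.0127), and at 500 nM its value of 0.30 was not called (adjusted p = 0.0695). NOP58 rose by 0.33 ± 0.11 (adjusted p = 0.0394) and the large subunit factor NOP16 by 0.32 ± 0.10 (adjusted p = 0.0334). GNL3 fell by 0.41 ± 0.13 at 100 nM (adjusted p = 0.0445), the opposite of its direction in LNCaP95, and its DMSO range of 6142 to 8773 overlapped the 100 nM range of 5362 to 6357.

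The LNCaP calls rested on few libraries, among the members and over all genes alike. At 500 nM 9 members were called without DMSO replicate 1, the library whose mitosis genes stood apart, and 1, MYC, without any of the other 5 libraries of the comparison. Over all genes 3891 of 12788 were called without DMSO replicate 1 and 1475 to 1603 without any of those 5. The full data gave 2671 of 12837. With the replicate block, which pairs 500 nM with DMSO, 6 members were called, 5 lower and 1 higher, DKC1 (adjusted p = 0.0389) among them, beside 3622 of all genes. At 100 nM 9 members were called without DMSO replicate 1, 3 without DMSO replicate 2, 2 without DMSO replicate 3 and 4 without 100 nM replicate 2. Over all genes the same 100 nM fits called 4617, 1753, 1736 and 1894, where the full data gave 3250. The GRWD1 call was lost without DMSO replicate 3, that of NPM1 without DMSO replicate 2 or 3, that of GNL3 also without 100 nM replicate 1 or 2, and those of NOP58 and NOP16 without any 1 DMSO library and without 2 of the 3 libraries at 100 nM (replicates 2 and 3 for NOP58, 1 and 2 for NOP16). Of the mitosis genes 17 of 20 were called higher in LNCaP at 100 nM and 4 of 20 at 500 nM, where MYC was lower. Their mean log2 level in DMSO was low in replicates 2 and 3 only (8.77 and 8.53). DMSO replicate 1, at 10.29, lay above 100 nM replicate 1 (10.06) and all 500 nM libraries (9.97 to 10.23). The mitosis calls were not repeated without that library, and the part of these genes was not tested.

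In 22Rv1, too, few members passed the test. MYC was lower and UTP15 and RRP12 were higher at each dose, which is 1 lower and 2 higher of 44, against 3.50% lower and 3.47% higher of all 13563 genes at 500 nM and 3.36% and 3.19% at 100 nM. The members' median was 0.06 and 0.07, and -0.02 at either dose with equal totals. The mitosis genes lay lower with treatment too: their mean log2 level was 11.62 to 11.63 in DMSO and 11.22 to 11.39 in the treated libraries, with 6 of 20 called lower at 500 nM and 5 at 100 nM, and their part in the result was not tested. UTP15 held 472, 600 and 603 normalised counts in DMSO, 738, 747 and 879 at 100 nM and 739, 806 and 730 at 500 nM. RRP12 held 3115, 2737 and 2606 in DMSO, 3713, 4077 and 3346 at 100 nM and 3841, 3642 and 3873 at 500 nM. Both genes lay higher in every treated library than in any DMSO library.

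UTP15 rose by 0.50 ± 0.12 (SE) at 100 nM and 0.45 ± 0.12 at 500 nM (adjusted p = 0.0324 and 0.0459) and RRP12 by 0.40 ± 0.10 and 0.43 ± 0.10 (adjusted p = 0.0373 and 0.0247). MYC was the only member with all treated 22Rv1 libraries below DMSO, against 9.95% of genes. In 5 members, UTP15, RRP12, POLR1E, NPM1 and TSR1, all treated libraries lay above DMSO. The share of all genes with that upward separation was not counted. The counts of called members rested on single libraries, and so did the counts over all genes. At 500 nM no member was called without DMSO replicate 2 or 3 or without 500 nM replicate 1 or 2, and 1 without 500 nM replicate 3. At 100 nM none was called without DMSO replicate 2 or 3 or 100 nM replicate 1, and 1 without DMSO replicate 1 or 100 nM replicate 3. The 500 nM fits that called no member held 384 to 494 calls over all genes, where the full data held 946. Those at 100 nM held 261 to 402, where the full data held 889. With so few calls over all genes, the absence of called members does not set them apart. UTP15 at 500 nM lost its call without any 1 library. In the full data 9 of 44 members had an unadjusted limma p under 0.05 at 500 nM and 7 at 100 nM. Of all 13563 genes 3111 and 2981 did, so the members did not exceed the background. With equal totals the split was 2 lower to 1 higher at 500 nM and 1 to 1 at 100 nM, UTP15 was no longer called at either dose, and 26.7% and 26.9% of all called genes were higher, where the deposited scaling gave 49.8% and 48.7%. The UTP15 and RRP12 exons overlap other genes on the opposite strand.

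**Figure D4:**
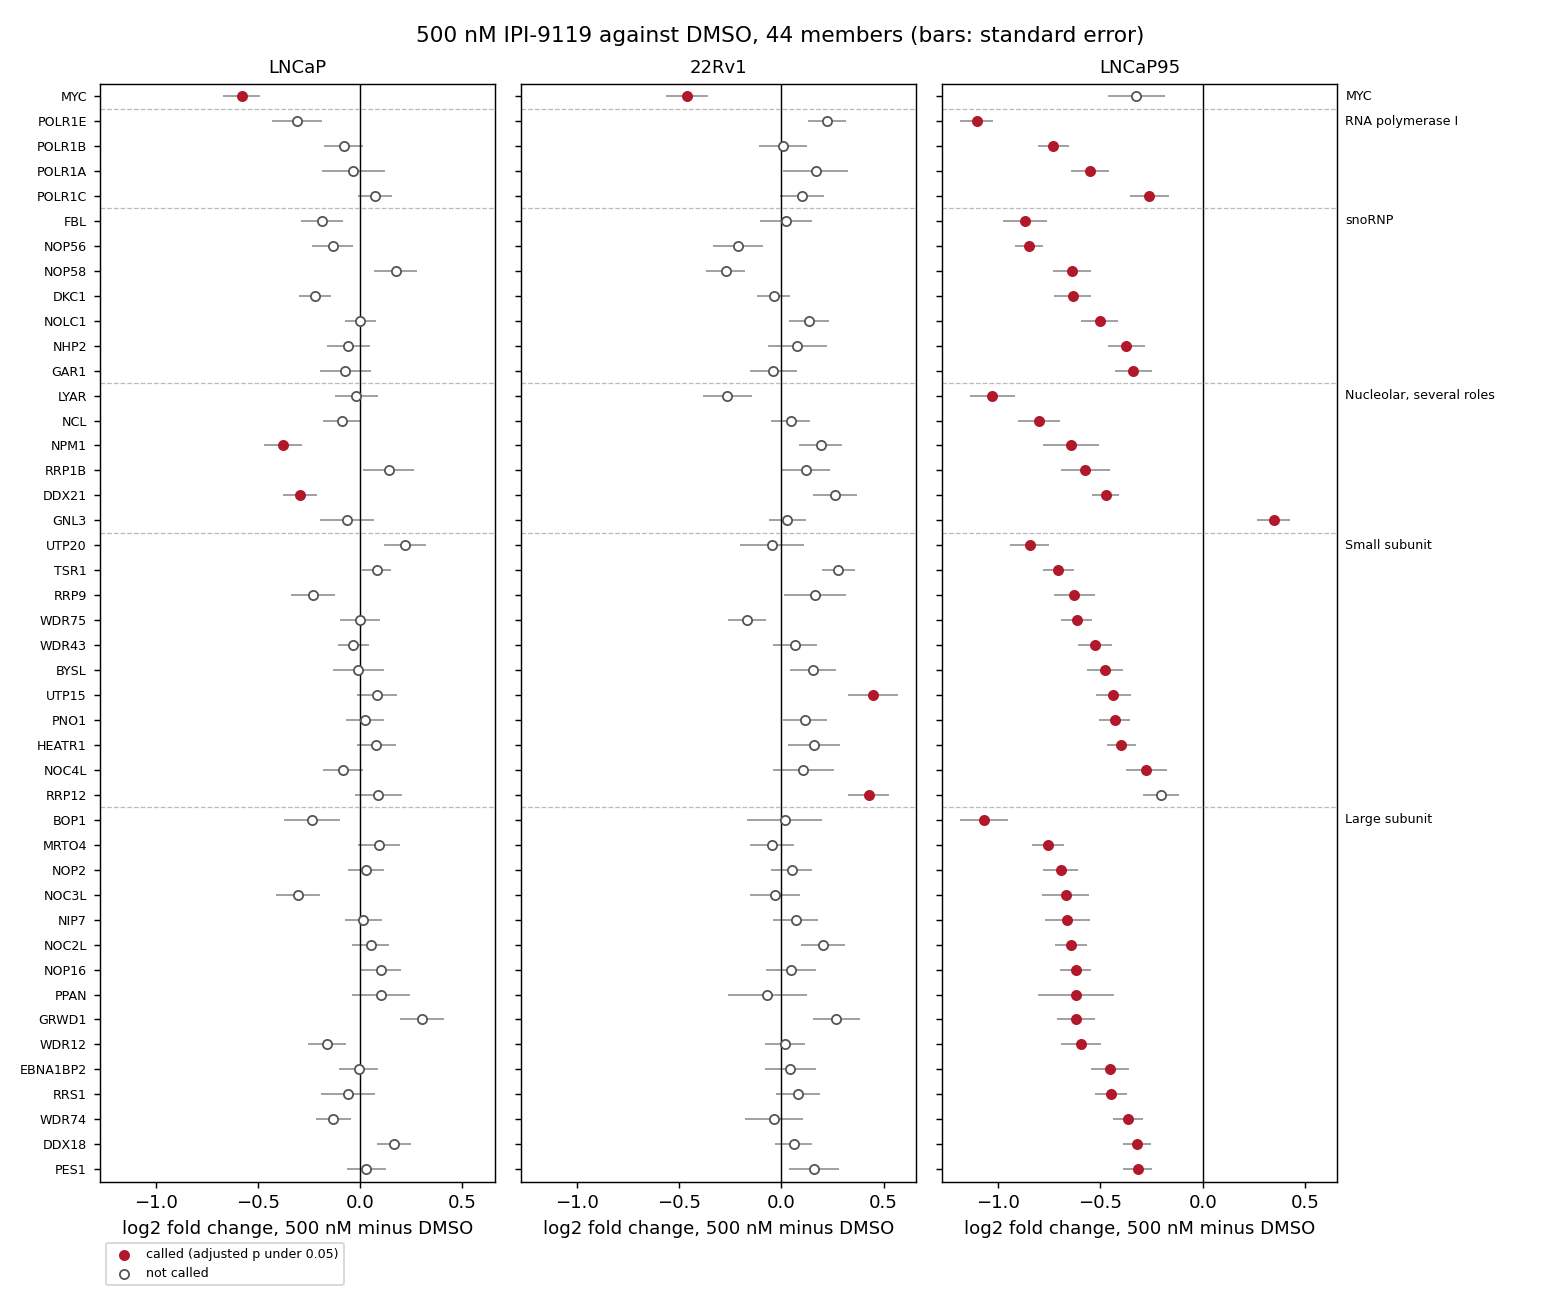
Log2 fold change of each of the 44 members at 500 nM IPI-9119 against DMSO (horizontal axis) in the 3 lines, with bars of 1 standard error. Genes are ordered by role and by their value in LNCaP95, red points are called and open points are not. In LNCaP95 41 points are called lower and GNL3 higher, while 3 points are called in LNCaP and 3 in 22Rv1.

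The effect of 500 nM was then compared between lines, with 1 fit of all libraries and a test of the difference itself. For LNCaP95 minus LNCaP 29 members were lower and 1 higher, against 19.1% lower and 19.8% higher of all 11761 genes, with a members' median of -0.50. For LNCaP95 minus 22Rv1 35 were lower, against 12.4% lower and 13.0% higher of all genes, with a median of -0.64. In 27 members the effect in LNCaP95 was called lower than in both other lines, and the share of all genes that met both conditions was not counted. Because each comparison uses the LNCaP95 libraries, the counts are not independent of each other.

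UTP20 differed the most between LNCaP95 and LNCaP, by -1.07 ± 0.19 (SE, adjusted p = 8.68e-05). Its fitted changes were -0.85 in LNCaP95 and 0.22 in LNCaP, where it was not called. LYAR differed by -1.01 ± 0.17, GRWD1 by -0.92 ± 0.15 and MRTO4 by -0.85 ± 0.13 (adjusted p = 4.68e-05, 3.36e-05 and 1.32e-05). GNL3 differed the other way, by 0.41 ± 0.15 (adjusted p = 0.0333), a call lost in 10 of 21 alternatives, among them equal totals and the omission of DMSO replicate 2 or 3 or 500 nM replicate 1 of LNCaP, or of DMSO replicate 1 or 3 or 500 nM replicate 1 or 3 of LNCaP95. Against 22Rv1, POLR1E differed by -1.33 ± 0.14, BOP1 by -1.09 ± 0.22, TSR1 by -0.98 ± 0.10 and FBL by -0.89 ± 0.17 (adjusted p = 1.02e-06, 0.00106, 5.99e-07 and 0.00061). The share of higher among all called genes went under equal totals from 50.9% to 39.5% for LNCaP95 minus LNCaP and from 51.2% to 61.6% for LNCaP95 minus 22Rv1, and the members then split 35 lower and 33 lower with none higher.

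22Rv1 and LNCaP differed in 4 members, 3 higher and 1 lower in 22Rv1 minus LNCaP, against 6.79% higher and 7.52% lower of all genes. NPM1 (0.57 ± 0.16, SE), DDX21 (0.56 ± 0.12) and POLR1E (0.53 ± 0.14) had the higher effect in 22Rv1 and NOP58 (-0.45 ± 0.14) the lower one, with adjusted p of 0.0196, 0.0027, 0.0108 and 0.0369. Equal totals moved the median of all genes by -0.158 in this comparison, and then only NOP58 was called, while the share of higher among all called genes fell from 47.4% to 21.4%. The NPM1 call was also lost without LNCaP DMSO replicate 3. That of NOP58 was lost without DMSO replicate 1 or 500 nM replicate 2 or 3 of LNCaP, or DMSO replicate 1 or 2 or 500 nM replicate 2 or 3 of 22Rv1.

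The step from 100 nM to 500 nM gave no called member in any line with limma, nor with edgeR or DESeq2. Of all genes 0.00779% were called in LNCaP, and 0% in 22Rv1 and in LNCaP95. At an unadjusted limma p under 0.05 stood 5 of 44 members in LNCaP, beside 1463 of all 12837 genes tested. In each of the other lines 0 members did, beside 152 of 13563 genes in 22Rv1 and 95 of 12844 in LNCaP95. The smallest p-values in LNCaP belonged to LYAR (-0.28 ± 0.11, SE, adjusted p = 0.386) and GNL3 (0.34 ± 0.13, adjusted p = 0.397), in 22Rv1 to NOP58 (-0.15 ± 0.09) and WDR75 (-0.12 ± 0.09), and in LNCaP95 to PPAN (0.30 ± 0.19) and POLR1B (-0.10 ± 0.08), the last 4 with an adjusted p of 1. MYC differed between the doses by -0.06 ± 0.09 in LNCaP, -0.07 ± 0.10 in 22Rv1 and 0.04 ± 0.14 in LNCaP95. Only MYC was called in the same direction at 100 nM in the 3 lines, and no member was at 500 nM. How many of all genes were so called was not counted. With the replicate block, edgeR or DESeq2, MYC was called lower at 500 nM in the 3 lines as well, the blocked adjusted p being 0.000606 in LNCaP, 0.0212 in 22Rv1 and 0.0153 in LNCaP95. In 22Rv1 the replicate numbers do not pair the libraries. Other settings lost calls of MYC in limma. With replicates 2 and 3 alone it was called at neither dose in 22Rv1 and LNCaP95. Without the filter its 100 nM calls were lost in both (adjusted p = 0.0621 and 0.0611).

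Other genes of the same pathways, from lists outside the 44, were counted beside them. These lists, too, were chosen with earlier results of these data known, so they are no independent repeat. In LNCaP95 at 500 nM, beside 24.1% of all genes lower and 28.2% higher, 32 of 45 other small subunit factors were lower and 1 higher (median -0.31), 34 of 50 other large subunit factors were lower and 4 higher (-0.35), and 9 of 17 other genes of RNA polymerase I were lower and none higher (-0.30). RRP7A (-0.90) and WDR3 (-0.74) of the small subunit, MYBBP1A (-0.84) and NOL9 (-0.76) of the large one and TAF1A (-0.92) and UBTF (-0.46) of the polymerase I machinery were among those with the smallest p. Of 30 other known MYC targets 26 were lower and 1 higher (median -0.60), led by RRM1 (-1.11), a subunit of ribonucleotide reductase, RCC1 (-1.21), a nucleotide exchange factor of RAN, and the mitochondrial chaperone gene TRAP1 (-0.91). At 100 nM the same lists gave 33, 33, 9 and 26 lower and 0, 4, 0 and 1 higher.

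In LNCaP at 500 nM, where 11.0% of all genes were higher and 9.83% lower, 4 of 45 small subunit factors were higher and 1 lower, 1 of 50 large subunit factors was higher and 4 lower, 2 of 17 polymerase I genes were higher and 1 lower, and 4 of 30 MYC targets were higher and 6 lower. The counts of the 3 ribosome lists lie near or below that background. IMP4, a U3 snoRNP protein, rose by 0.64, and RSL24D1 and GLTSCR2 (now NOP53) of the large subunit fell by 0.68 and 0.77. Among the MYC targets AMD1, which supplies polyamine synthesis, rose by 0.87 and IMPDH2, of guanine nucleotide synthesis, fell by 0.65. In 22Rv1 at 500 nM no gene of the 3 ribosome lists passed the test in limma, where 3.50% of all genes were lower and 3.47% higher. At an unadjusted p under 0.05 stood 1, 2 and 1 of them, beside 3111 of all 13563 genes. Of the MYC targets TYMS, thymidylate synthase, was lower (-0.43).

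The partners and regulators of MYC are 25 genes in a list of their own, 24 of them tested in LNCaP. In LNCaP95 at 500 nM 12 were lower and 2 higher (median -0.20), beside 24.1% lower and 28.2% higher of all genes. SKP2, a ubiquitin ligase component, fell by 1.32 ± 0.11 (SE, adjusted p = 1.13e-06) and RUVBL1, a helicase and MYC cofactor, by 0.63 ± 0.08 (adjusted p = 4.35e-05). MXD4, which competes with MYC for MAX, rose by 0.64 ± 0.07 (adjusted p = 1.34e-05), from 1803 to 2807 normalised counts. The second riser was MXD1, of the same family, at 0.94 ± 0.14 (adjusted p = 8.96e-05), named after its value was seen. The family did not move as one: MXD3 was lower (-1.08, adjusted p = 0.00199) and MXI1 was not called (0.04, adjusted p = 0.824). The largest fall of the list was that of MYCN (-2.39, adjusted p = 0.00204), a low gene with a mean of 16.3 normalised counts in DMSO and 2.15 at 500 nM. These genes, too, were named after their values were seen. In LNCaP 3 were lower and 2 higher, which is the share called among all genes (20.8%). MLXIP (0.97) and MYCBP2 (0.52) were the higher ones and RUVBL1 (-0.33) was among the lower. In 22Rv1 3 of 25 were lower, MXD3 (-0.77), SKP2 (-0.42) and PIM1 (-0.56), and 1, MLX, was higher (0.41). Of all genes 3.50% were lower and 3.47% higher there.

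With DMSO 14 members were higher and 14 lower in 22Rv1 than in LNCaP, against 39.3% higher and 35.5% lower of all 14026 genes. LNCaP95 had 21 higher and 8 lower than LNCaP (34.0% higher and 32.5% lower of all genes) and 15 higher and 11 lower than 22Rv1 (35.4% and 40.8%). The members' medians were -0.05, 0.20 and 0.14, and the first turned to 0.02 with equal totals. Equal totals moved the median of all genes by 0.206 for LNCaP95 minus LNCaP and 0.138 for LNCaP95 minus 22Rv1, with members split 26 to 7 and 23 to 7 and the share of higher calls over all genes going from 51.1% to 63.2% in the first.

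MYC was the highest in LNCaP, where its DMSO level was above that of 22Rv1 (log2 difference of 22Rv1 minus LNCaP -0.45 ± 0.12, SE, adjusted p = 0.00232) and of LNCaP95 (-0.56 ± 0.12, adjusted p = 0.000371). 22Rv1 and LNCaP95, the neighbours in that order, were not shown to differ (-0.11 ± 0.12, adjusted p = 0.437), and the sign turned with equal totals (0.03) and without LNCaP95 DMSO replicate 2 (0.04). GNL3 had a mean of 7723 ± 1394 (SD, n = 3) normalised counts in LNCaP, 3144 ± 205 in 22Rv1 and 3443 ± 337 in LNCaP95. The log2 difference from LNCaP was -1.28 ± 0.11 (SE, adjusted p = 8.7e-11) in 22Rv1 and -1.15 ± 0.11 (adjusted p = 1.13e-09) in LNCaP95. NPM1, DDX21 and RRP9 were lower in 22Rv1 than in LNCaP by 0.68, 0.64 and 0.62.

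MRTO4 stood out in 22Rv1, at 1596, 1382 and 1360 normalised counts against 524, 493 and 548 in LNCaP and 709, 711 and 755 in LNCaP95. The difference from LNCaP was 1.47 ± 0.09 (SE, adjusted p = 2.22e-13), and NOC3L (1.0), GAR1 (0.86) and LYAR (0.84) followed. In LNCaP95, PNO1 (1.06), LYAR (0.96), UTP20 (0.95) and NOC2L (0.93) were above LNCaP, and NOP56 (-0.84), RRS1 (-0.74) and NOC4L (-0.64) below. Against 22Rv1, LNCaP95 was higher in NOC2L (1.12), POLR1E (1.03), DDX18 (0.96) and UTP15 (0.90) and lower in NOC4L (-1.21), MRTO4 (-0.99), EBNA1BP2 (-0.95) and NOP56 (-0.67). LNCaP95 in DMSO was above both other lines in 12 members and below both in 4. How many of all genes met these double conditions was not counted, so whether the members stand apart in this is not known.

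**Figure D5:**
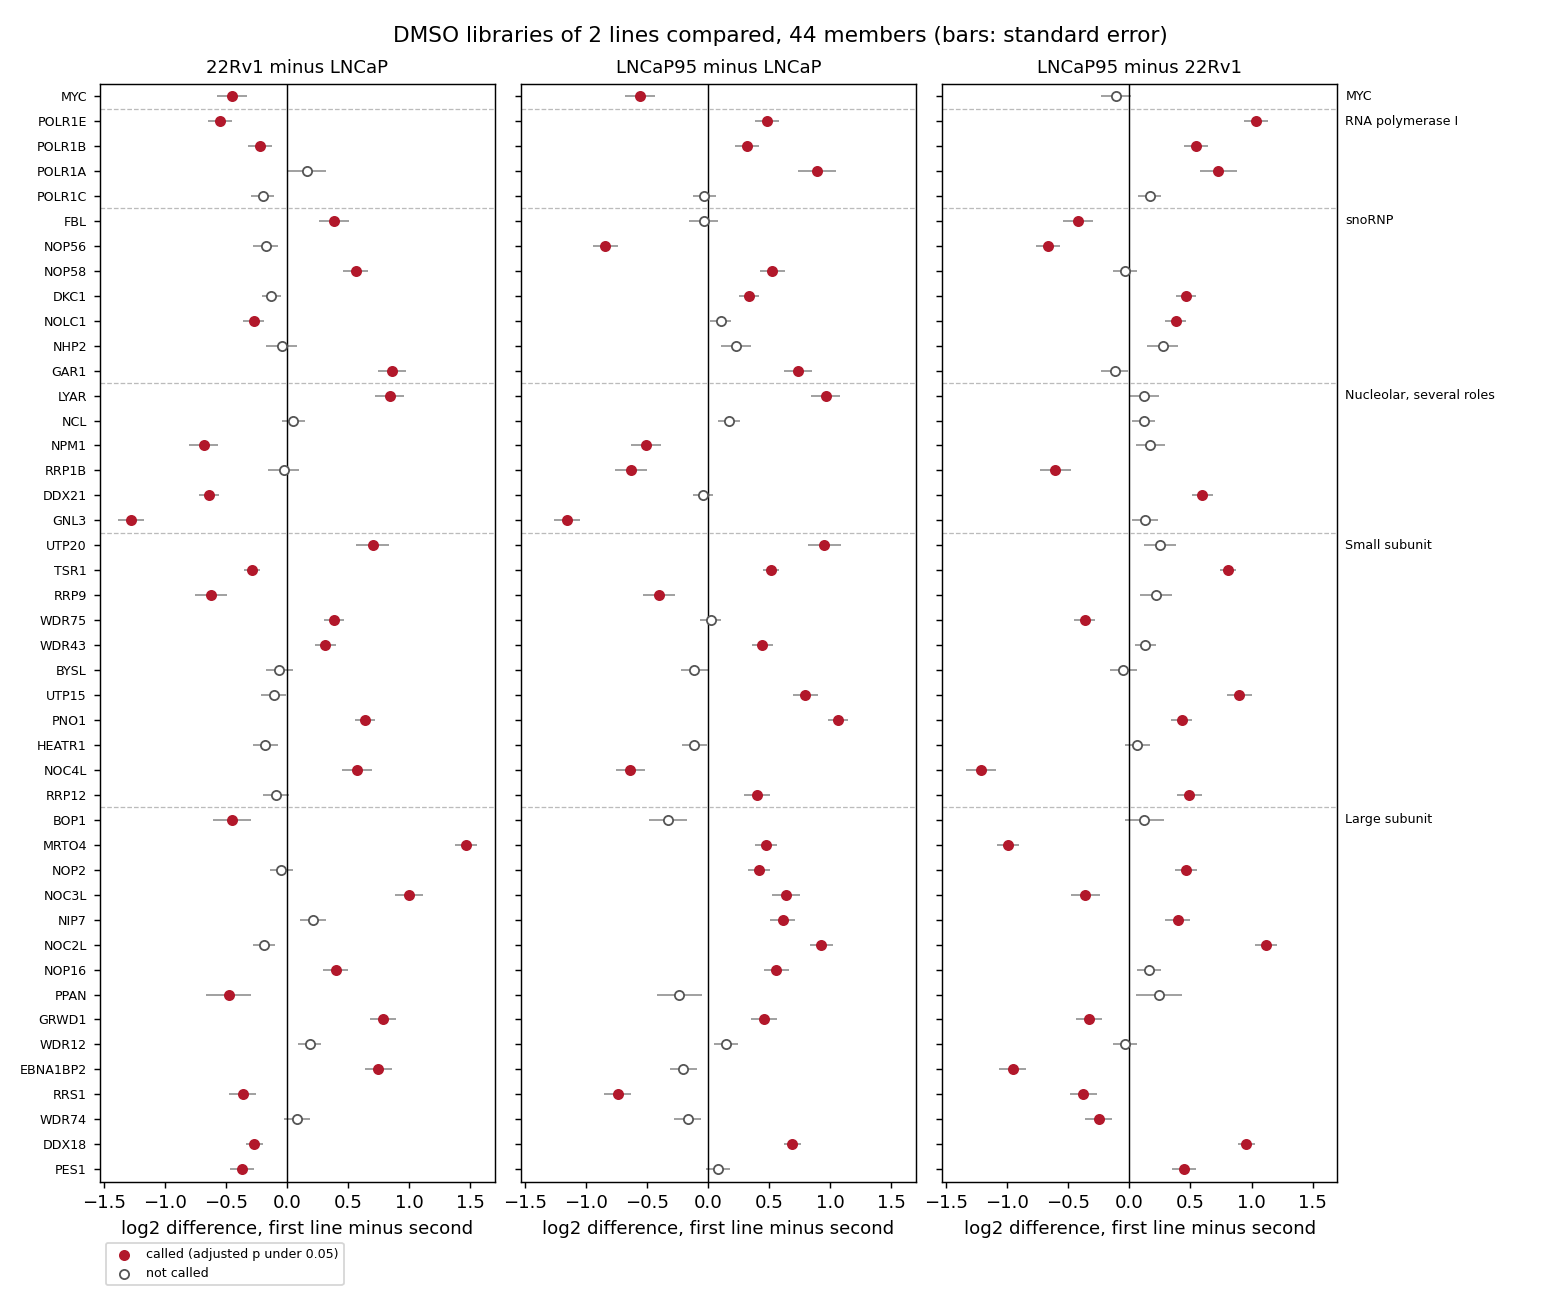
Log2 difference of each member's level between the DMSO libraries of the lines (horizontal axis), with bars of 1 standard error. Red points are called and open points are not, and the order of genes is that of their role. GNL3 lies at -1.28 and -1.15 in the comparisons with LNCaP, and MRTO4 at 1.47 for 22Rv1 minus LNCaP.

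Treatment brought POLR1E in LNCaP95 to 684 ± 36.6 normalised counts (SD, n = 3) at 500 nM, from 1474 ± 123 in DMSO, beside 719 ± 29.4 in DMSO-treated 22Rv1. For LYAR the LNCaP95 values were 1739 ± 180 in DMSO and 852 ± 105 at 500 nM, beside 890 ± 62.0 in LNCaP DMSO. The line set beside each gene was chosen after the values were seen, and the line left out lay higher. Per kilobase of the median transcript, POLR1E stood at 514 in LNCaP DMSO and at 334 in LNCaP95 at 500 nM. LYAR stood at 1089 in 22Rv1 DMSO and at 581 in LNCaP95 at 500 nM. These levels are set side by side and were not tested against each other. Of all members, 24 share exonic bases with another annotated gene, 12 of them on the same strand and 16 on the other, and 9 carry snoRNA genes, so their counts may hold reads of neighbours.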

How the data were processed

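Per the labels' protocols, the 27 libraries were directional, made from poly(A) RNA and read from both ends. The submitters' processing notes name STAR 2.3.1z4, featureCounts, DESeq and the build hg19. For the strand setting of the counting, not given in the sources used here, no assumption was made. The deposited signal holds read counts that the authors scaled by 1 factor per library: in all 27 columns every value was a whole multiple of the smallest (tolerance 1e-06, 100% of values), 1 read being worth 0.757 to 1.39 units. Of 20987 genes 1376 were at 0 throughout.

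Groups came from the labels. Values were tested as log2(value + 1) with limma 3.58.1 in R 4.3.3 (trend, two-sided, Benjamini-Hochberg over all genes tested), and a gene was called at an adjusted p under 0.05. The log scale understates changes of low genes. The filter kept genes that reached 10 in at least 3 of the libraries fitted. Comparisons within a line used its 9 libraries; differences of effects (filter in each line) and DMSO comparisons (filter on the 9 DMSO libraries) used 1 fit of 27. The planned log-scale test was kept although whole reads were recovered, and edgeR 4.0.16 and DESeq2 1.42.0 on those reads are alternatives. The procedure was run on simulated counts with the same spread setting for every gene and no outlying library. That run does not show how it performs on the spread of these libraries.

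Replicate numbers in the labels were treated as pairs where all 3 correlations of same-numbered deviations from the group means were over 0.1: LNCaP95 (0.128 to 0.471), LNCaP 500 nM with DMSO (0.131 to 0.316) and with 100 nM (0.263 to 0.389). In LNCaP 100 nM with DMSO (-0.003 to 0.082) and in 22Rv1 (-0.291 to 0.387) they were not.

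The members and lists were chosen with earlier results of these data known. Named in each comparison were MYC, up to 4 called higher and 4 called lower members by size, or where none was called the 2 with the smallest p, and up to 3 genes per other list by p; others named were chosen after their values were seen. Older symbols were matched through RefSeq synonyms. Promoters are RefSeq's (GRCh38.p14), and exon overlaps and transcript lengths come from GENCODE by symbol; no hg19 coordinates were used.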

Additional observations from a re-analysis of the deposited data

Results flagged for a closer look

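The effect of 500 nM IPI-9119 differed between lines, by the test of the difference in limma, in the following members. Between 22Rv1 and LNCaP 4 members differed: NPM1 (0.57), DDX21 (0.56), POLR1E (0.53) and NOP58 (-0.45), as the log2 effect in 22Rv1 minus that in LNCaP. Between LNCaP95 and LNCaP 30 members differed, of which GNL3 (0.41), UTP20 (-1.07), LYAR (-1.01), GRWD1 (-0.92) and MRTO4 (-0.85) are named. Between LNCaP95 and 22Rv1 35 members differed, with 4 named: POLR1E (-1.33), BOP1 (-1.09), TSR1 (-0.98) and FBL (-0.89).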

How the results depend on the processing

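Over 80 named values and their alternatives, 1202 alternative values kept their direction and call, 114 lost the call and 6 gained one. The sign turned in 11, all of MYC and none called under either setting. With 1 library left out at a time, its dose step ran from -0.1385 to 0.0002 in LNCaP, from -0.1502 to 0.0104 in 22Rv1 and from -0.0813 to 0.1526 in LNCaP95, its difference of effects for LNCaP95 minus 22Rv1 from -0.0092 to 0.2549 and its DMSO difference for the same lines from -0.1912 to 0.0403. Replicates 2 and 3 only gave 0.0144 for the LNCaP dose step, and equal totals gave -0.0409 for the difference of effects of 22Rv1 minus LNCaP and 0.0312 for the DMSO difference of LNCaP95 minus 22Rv1. The counts of members called in LNCaP95 and in DMSO, and in the differences that involve LNCaP95, stayed within 1.5 times the reported count in all alternatives. In LNCaP at 500 nM, 3 members became 6 in 1 fit of all 27 libraries, 6 with the replicate block and 7 with replicates 2 and 3 only. The 2671 calls over all genes became 3232, 3622 and 3753. At 100 nM 7 became 3 with only the groups compared, and 11 with the replicate block, where the numbers do not pair the libraries. The 3250 calls over all genes became 2158 and 4339. For the dose step in LNCaP replicates 2 and 3 gave 1 in place of 0, and 755 in place of 1 over all genes. In 22Rv1 the 3 members became 0 at each dose with replicates 2 and 3, and at 100 nM 1 without the filter and 0 with only the groups compared. With replicates 2 and 3 the calls over all genes went from 946 to 105 at 500 nM and from 889 to 124 at 100 nM. At 100 nM they were 665 without the filter and 355 with only the groups compared. For 22Rv1 minus LNCaP the 4 members became 1 with equal totals and 2 with replicates 2 and 3. Leaving out each library in turn gave 1 to 9 members in LNCaP at 500 nM and 2 to 9 at 100 nM, 0 to 2 in 22Rv1 at each dose, 39 to 42 and 39 to 43 in LNCaP95 at 500 nM and 100 nM, 0 for each dose step, 3 to 4, 26 to 33 and 34 to 40 for the differences 22Rv1 minus LNCaP, LNCaP95 minus LNCaP and LNCaP95 minus 22Rv1, and 26 to 31, 29 and 24 to 28 for the DMSO levels in the same order. Over all genes, leaving out each library gave 1475 to 3891 calls in LNCaP at 500 nM and 1736 to 4617 at 100 nM. In 22Rv1 it gave 384 to 697 at 500 nM and 261 to 1184 at 100 nM. The causes were not tested. The block moved the LNCaP95 counts to 44 at 500 nM and 43 at 100 nM, and in 22Rv1, where it pairs nothing, it gave 3 and 2. With 3 libraries a group, and 22Rv1 with few called genes at all, small changes of a member cannot be shown or excluded there. What depth limits was not tested, the lowest member value being 65.7.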
